A study of Mus musculus with 8 samples.

Results

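Glutamate and GABA are the main excitatory and inhibitory transmitters of the brain, and their receptors were followed here in tumor cells that grew in brain tissue. The count table of the E-cadHI and E-cadLO tumor cells was searched for protein coding genes named as subunits of the AMPA (Gria), kainate (Grik), NMDA (Grin) and metabotropic (Grm) glutamate receptors and of the GABA-A receptors (Gabra, Gabrb, Gabrg, Gabrd, Gabre, Gabrp, Gabrq and Gabrr). The search found 43 of the 20312 protein coding genes, or 43 of the 31894 genes with an identifier: 4 AMPA, 5 kainate, 7 NMDA, 8 metabotropic and 19 GABA-A receptor genes. The antisense gene Grin1os shares a name with these genes and was not counted, since it is not protein coding.

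The cells came from breast cancer brain metastases (BCBM) of 4 wild type FVB mice, which the labels number 57, 58, 67 and 70. Tumor cells of the PyMT mammary tumor model, in which a viral oncogene is expressed in mammary epithelium, carried an E-cadherin-mCFP fusion as a fluorescent reporter and had been passaged through the brain and grown as organoids before they were injected intracranially into adult females. The study also gave its BCBM tumor cells a nuclear fluorescent marker, H2B-Dendra2, and its methods text does not say whether the sort used it. From each tumor, cells with high E-cadherin (E-cadHI) and cells with low E-cadherin (E-cadLO) were sorted by flow cytometry on the mCFP signal, which gave 4 libraries per group, all with the same donor line, host strain and genotype. No treatment differed between them per the labels, and the study's methods give the painkillers carprofen and buprenorphine around intracranial injections. As a model it is limited in that growth in the brain started from injected organoid cells and not from a breast tumor, and in that the purity of the sort was checked for the mCFP-positive cells only, the E-cadLO cells being too few for it.

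AMPA, kainate and NMDA receptors are ion channels built of several subunits that glutamate opens, while the metabotropic receptors signal through G proteins. GABA-A receptors are chloride channels of pentameric form, in neurons mostly built of alpha, beta and gamma subunits. The pi subunit (Gabrp) is known mainly from epithelia outside the brain, among them the mammary gland, and the rho subunits (Gabrr) mainly from the retina, where they form channels without alpha or beta partners.

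The results turn on Gabrp and Gabrr1, so the 250 bases before their RefSeq transcription starts are shown, together with those of Gabrr2, the neighbor and paralog of Gabrr1 that was almost without reads. All coordinates are on GRCm38 (GRCm38.p6 in the RefSeq table). Gabrr1 (ENSMUSG00000028280) lies on chromosome 4 from 33132521 to 33163588 on the plus strand, next to Gabrr2 from 33062999 to 33095865 on the same strand. Gabrp (ENSMUSG00000020159) lies on chromosome 11 from 33550781 to 33578959 on the minus strand, apart from the other GABA-A receptor genes of that chromosome. The promoter windows are chr11:33578958-33579207 (minus strand, Gabrp), chr4:33132306-33132555 (plus strand, Gabrr1) and chr4:33062862-33063111 (plus strand, Gabrr2), each written 5′ to 3′. Capitals mark a match to CACCTG, the E-box that Snail and Zeb factors can bind, read on either strand.

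Gabrp: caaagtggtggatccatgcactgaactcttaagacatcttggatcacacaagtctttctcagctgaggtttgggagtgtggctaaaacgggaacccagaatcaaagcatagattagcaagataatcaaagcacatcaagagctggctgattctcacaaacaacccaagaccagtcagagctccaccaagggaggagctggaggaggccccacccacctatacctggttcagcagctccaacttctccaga
Gabrr1: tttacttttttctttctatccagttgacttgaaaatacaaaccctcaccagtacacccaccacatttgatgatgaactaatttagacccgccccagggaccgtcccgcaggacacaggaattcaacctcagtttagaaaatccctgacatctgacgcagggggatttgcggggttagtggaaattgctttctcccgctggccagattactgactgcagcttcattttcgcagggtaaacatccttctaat
Gabrr2: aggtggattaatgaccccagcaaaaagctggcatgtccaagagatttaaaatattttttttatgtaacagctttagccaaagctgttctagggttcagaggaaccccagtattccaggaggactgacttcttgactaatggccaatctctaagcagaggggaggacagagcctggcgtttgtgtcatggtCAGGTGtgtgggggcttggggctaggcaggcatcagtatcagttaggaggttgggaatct

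These 3 windows differ in base composition, with 7 CG pairs and 46.0% G and C for Gabrr1, 1 CG pair and 49.2% for Gabrp and 1 CG pair and 47.6% for Gabrr2, where the median of all 32851 promoter windows was 6 CG pairs and 52.4%. The only motif match among the 3 windows was the CACCTG of Gabrr2, which starts 60 bases before the transcription start. Neither TGANTCA, the AP-1 motif, nor TATAAA was found in them on either strand, and no motif of the search contains another. Of the 43 subunit genes, 30 had a promoter in the RefSeq table, with 37 windows in all. CACCTG was present in 8 of the 37 windows (21.6%, against 17.2% of all promoters), TGANTCA in 2 (5.41%, against 6.75%) and TATAAA in 4 (10.8%, against 12.4%).

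The libraries held between 9102781 and 15769200 counts in genes with an identifier, so that the floor used here, 3 counts, corresponded to 0.190 to 0.330 CPM, which are counts scaled to a common library size. The RNA of the sorted gene itself, Cdh1 (E-cadherin), ranged from 93.5 to 132 CPM in E-cadHI cells and from 59.2 to 181 CPM in E-cadLO cells, and it was lower in E-cadLO cells in 3 of 4 mice, all but mouse 58. The 15 epithelial markers were detected in every library, with a summed level of 10547 to 13256 CPM in E-cadHI and 6201 to 15518 CPM in E-cadLO libraries. Markers of brain cells were also present, with higher sums in E-cadLO libraries of most mice, as described beside the receptors below. Across all 13598 genes that passed the filter on low counts, none was called at an adjusted p under 0.05 in the fit without the mouse (0.0% of tested genes, smallest adjusted p = 0.114, quasi-likelihood test of edgeR, adjusted by Benjamini-Hochberg). With unadjusted p-values under 0.05 this fit gave 1109 genes higher and 790 lower in E-cadLO cells, and DESeq2 without the mouse called 359 genes (2.64%). When the mouse was entered as a replicate block, edgeR called 99 genes, all of them higher in E-cadLO cells (0.728%).

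Most receptor genes were close to the detection limit. The median subunit had 80 counts in all 8 libraries together, 34 of the 43 subunits had no count in at least 1 library, and Gabrp alone had at least 10 counts in every library. The filter on low counts kept 19 subunits and removed 24, so statements about calls concern these 19. The number of subunits above 3 counts was 7, 38, 19 and 30 in the E-cadHI libraries of mice 57, 58, 67 and 70 and 13, 33, 25 and 38 in their E-cadLO libraries. Mouse 57 thus had the fewest detected subunits in both groups, and the group with more of them was E-cadLO in every mouse except 58. A number above 3 counts also depends on depth, for which it was not corrected. The E-cadLO library was the deeper one in mice 67 and 70 and the shallower one in mice 57 and 58. In mouse 58 it held 9102781 counts, against 13006189 in the E-cadHI library.

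Per kilobase of exon, which allows levels to be compared between genes, the epithelial pi subunit Gabrp had the highest median level of all 43 subunits in E-cadHI cells, with 20.9 CPM per kb (range 18.8 to 36.8). Next in the order of E-cadHI medians stood Grm3 with 0.864 (0.046 to 4.12), Gria1 with 0.551 (0 to 2.34) and Gabrr1 with 0.350 CPM per kb (0.115 to 4.70). The ranges of Grm3, Gria1 and Gabrr1 overlapped widely, so that their order does not exceed their spread, whereas the range of Gabrp lay above those of the other subunits. In E-cadLO cells the order of medians was led by Gabrr1 with 16.3 CPM per kb (3.82 to 51.0), followed by Gabrp with 10.7 (1.94 to 36.4), Grm3 with 3.09 (0.658 to 14.6), Gabra2 with 1.19 (0.224 to 3.28) and Gria1 with 0.895 (0.025 to 12.3). Each neighbor in this E-cadLO order overlapped the next.

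Gabrp stood at 72.7, 124, 68.2 and 63.4 CPM in the E-cadHI libraries of mice 57, 58, 67 and 70 and at 6.54, 123, 36.0 and 36.3 CPM in their E-cadLO libraries. The E-cadLO library was the lower one in every mouse, by a wide margin in mouse 57 and hardly at all in mouse 58, and the groups overlapped because the E-cadLO library of mouse 58 lay above the E-cadHI libraries of the other mice. The mean was 82.2 CPM ± 28.4 (SD, n = 4) in E-cadHI and 50.4 CPM ± 50.2 (SD, n = 4) in E-cadLO cells. Without the mouse the log2 fold change was -0.71 (SE 0.67, 95% interval -2.21 to 0.80, edgeR adjusted p = 0.607), and with the mouse as a block it was -1.21 (SE 0.51, 95% interval -2.39 to -0.03, unadjusted p = 0.0458, edgeR adjusted p = 0.247). Neither fit called it after adjustment over all genes, and its size rested on single mice, with -0.41 without mouse 57 and -1.37 without mouse 58 (with the block -0.60 and -1.64). As a share of the counts of all 43 subunits, Gabrp took 84.0%, 70.4%, 84.8% and 43.9% in E-cadHI cells and 4.68%, 62.3%, 22.6% and 9.21% in E-cadLO cells. In each mouse the share was lower in the E-cadLO library. The share also depends on the other subunits. Gabrr1 and the sum of the remaining 41 were both higher in the E-cadLO library of every mouse. In mouse 70 that sum was 80.7 CPM in the E-cadHI and 346 CPM in the E-cadLO library.

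Gabrr1 encodes the rho1 subunit, which forms GABA-gated channels of its own. It stood at 10.7, 1.23, 0.372 and 0.263 CPM in the E-cadHI libraries of mice 57, 58, 67 and 70, which are 154, 16, 5 and 3 counts. In the E-cadLO libraries of the same mice it stood at 117, 8.72, 62.7 and 11.7 CPM, which are 1570, 75, 931 and 168 counts. Gabrr1 was higher in E-cadLO cells in all mice, most of all in mouse 67 on the log scale, and the groups overlapped only because the E-cadHI library of mouse 57 exceeded the E-cadLO library of mouse 58. The log2 ratios within a mouse, computed on CPM plus 0.5, were 3.38, 2.42, 6.18 and 4.00, with a mean of 4.00 ± 1.60 (SD, n = 4), and the exact two-sided sign-flip test gave p = 0.125, the smallest p that 4 pairs allow. In the fit without the mouse the log2 fold change was 3.97 (SE 1.27, 95% interval 1.12 to 6.82), with an unadjusted p of 0.0115 and an adjusted p of 0.298 (edgeR).

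With the mouse as a replicate block, Gabrr1 passed the test, with a log2 fold change of 4.43 (SE 0.69, 95% interval 2.82 to 6.03, edgeR adjusted p = 0.0417). It was the only subunit of the 19 called in that fit. DESeq2 gave 4.02 (adjusted p = 0.0662) without the block and 4.60 (adjusted p = 5.8e-12) with it. The call of the edgeR fit with the block did not rest on mouse 57, without which the log2 fold change was 5.02 (edgeR adjusted p = 0.00631). It was lost when any other mouse was left out, with adjusted p-values of 0.0514 without mouse 58, 0.247 without mouse 67 and 0.190 without mouse 70 (edgeR), while the log2 fold change stayed between 3.69 and 5.03. Bulk libraries cannot tell fewer cells that express a subunit from less of its RNA per cell, here or for any subunit described below.

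**Figure D1:**
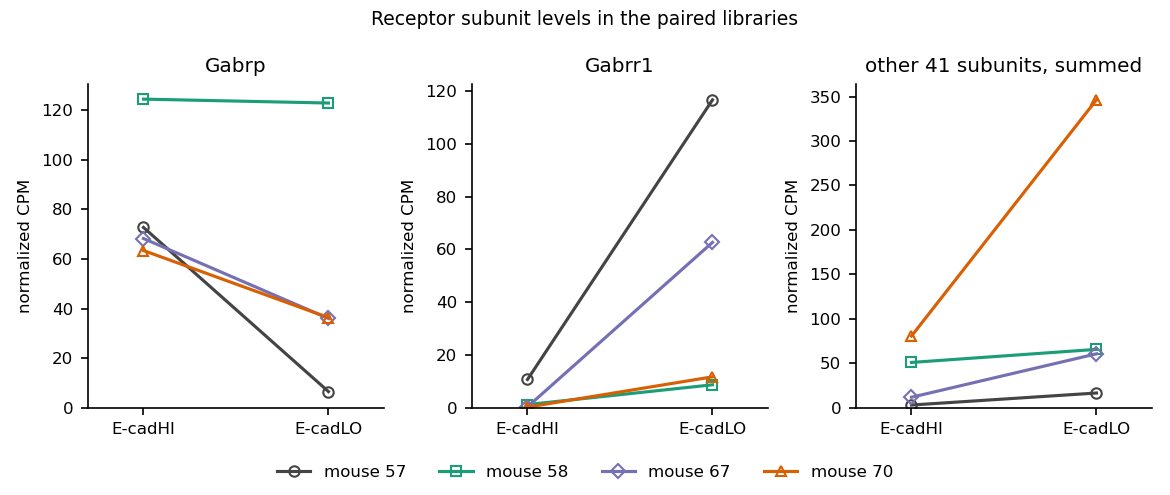
Normalized CPM (linear axis from 0) of Gabrp, of Gabrr1 and of the other 41 subunits summed, in the E-cadHI and E-cadLO libraries of each mouse, joined by a line per mouse. Gabrp ran down or level in all 4 mice, Gabrr1 ran up in all 4, and the sum of the others reached 346 CPM in the E-cadLO library of mouse 70.

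The paralogs of Gabrr1 were near 0. Gabrr2 had 22 counts in all, with 0, 1, 0 and 3 counts in the E-cadHI and 0, 9, 0 and 9 counts in the E-cadLO libraries of mice 57, 58, 67 and 70. It had no count in either library of mice 57 and 67, the same mice whose E-cadLO libraries were highest for Gabrr1. Gabrr3 had 9 counts in all, 3 of them in the E-cadHI library of mouse 58 and 6 in the E-cadLO library of mouse 67.

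Among the alpha subunits, which together with beta subunits form the GABA binding site, Gabra2 was the most abundant per kilobase in E-cadLO cells. Gabra2 stood at 0, 2.84, 0.520 and 5.18 CPM in the E-cadHI libraries of mice 57, 58, 67 and 70 and at 1.71, 7.44, 10.8 and 25.1 CPM in the E-cadLO libraries. It was higher in the E-cadLO library of every mouse, while the groups overlapped. The log2 fold change was 2.40 (SE 1.19, edgeR adjusted p = 0.388) without and 2.93 (SE 0.71, edgeR adjusted p = 0.120) with the block, and it passed in DESeq2 with the block (adjusted p = 2.49e-04) and in edgeR with the block when mouse 57 was left out (adjusted p = 0.0341).

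Gabra2 lies in a cluster of 4 GABA-A receptor genes on chromosome 5 (70751047 to 72149037) with Gabrg1, Gabra4 and Gabrb1. Gabrb1, a beta subunit, had 0, 36, 9 and 71 counts in the E-cadHI and 16, 23, 75 and 596 counts in the E-cadLO libraries of mice 57, 58, 67 and 70. Gabrg1, a gamma subunit, had 1, 35, 13 and 78 counts in E-cadHI and 2, 29, 0 and 731 counts in E-cadLO libraries. Gabra4, an alpha subunit of receptors outside the synapse, had 0, 27, 7 and 61 counts in E-cadHI and 1, 22, 0 and 273 counts in E-cadLO libraries. The E-cadLO library of mouse 70 was the highest for all 4 genes of the cluster, but mouse 67 split them, with Gabra2 and Gabrb1 higher and Gabrg1 and Gabra4 lower in its E-cadLO library. The log2 fold change was 2.39 for Gabrb1 (SE 1.39, edgeR adjusted p = 0.440), 2.38 for Gabrg1 (SE 1.78, edgeR adjusted p = 0.527) and 1.46 for Gabra4 (SE 1.73, edgeR adjusted p = 0.687). With the block the values were 2.29 (SE 0.74) for Gabrb1, 0.55 (SE 1.09) for Gabrg1 and 0.34 (SE 1.02) for Gabra4, none of them called (edgeR adjusted p = 0.183, 0.801 and 0.873). Of these, Gabrb1 passed in DESeq2 with the block (adjusted p = 0.00903). Without mouse 70 and without the block, the log2 fold change was 1.38 for Gabrb1 and -0.12 for Gabrg1. With the block and without mouse 70 it was 2.31 for Gabrb1 and -0.87 for Gabrg1. Gabra4 and Gabrb1 are transcribed from opposite strands and share 196 bases at their 5′ ends, where reads cannot be assigned without strand.

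Gabrd, the delta subunit of receptors outside the synapse, and Gabra5, an alpha subunit known from the hippocampus, had log2 fold changes near 0 beside their errors. Gabrd had 0, 18, 4 and 21 counts in the E-cadHI and 0, 6, 19 and 27 counts in the E-cadLO libraries of mice 57, 58, 67 and 70, with a log2 fold change of 0.15 (SE 1.25, edgeR adjusted p = 0.962) that turned to -0.33 without mouse 67. Gabra5 had 1, 21, 0 and 13 counts in E-cadHI and 0, 21, 0 and 30 counts in E-cadLO cells, with a log2 fold change of 0.67 (SE 1.57, edgeR adjusted p = 0.851). For both genes mouse 57 was at or near 0 in both groups, and the groups overlapped.

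Of the 4 AMPA receptor subunits, 3 passed the filter. Gria1 stood at 0.279, 6.38, 0 and 14.1 CPM in the E-cadHI libraries of mice 57, 58, 67 and 70 and at 0.149, 5.23, 5.59 and 74.4 CPM in the E-cadLO libraries. It was higher in E-cadLO cells of mice 67 and 70 and lower in those of mice 57 and 58, with a log2 fold change of 2.05 (SE 1.67, edgeR adjusted p = 0.553) that was 0.72 without mouse 70. Gria2, the subunit whose edited form keeps calcium out of the channel, had 2, 39, 14 and 52 counts in E-cadHI and 4, 37, 20 and 371 counts in E-cadLO cells. Its CPM were higher in the E-cadLO library of each mouse, little in 3 of them and clearly in mouse 70, and the log2 fold change of 1.87 (SE 1.28) did not pass (edgeR adjusted p = 0.497) and was 0.49 without mouse 70. Gria3 had 0, 11, 4 and 29 counts in E-cadHI and 7, 21, 37 and 69 counts in E-cadLO cells. It was higher in E-cadLO cells of all mice by a similar log2 ratio (0.80 to 1.91), and neither fit called it, with 1.48 (SE 1.11, edgeR adjusted p = 0.526) without and 2.07 (SE 0.74, edgeR adjusted p = 0.205) with the block.

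Of the kainate receptor subunits, Grik5 passed the filter, a subunit that binds glutamate with high affinity and needs a partner to form a channel. It had 1, 12, 6 and 8 counts in the E-cadHI and 2, 8, 37 and 24 counts in the E-cadLO libraries of mice 57, 58, 67 and 70. In CPM, Grik5 was higher in the E-cadLO library of each mouse, by a log2 ratio of 0.01 in mouse 58 and up to 1.66 in mouse 67, and the log2 fold change was 1.29 (SE 0.90, edgeR adjusted p = 0.505), or 0.68 without mouse 67. The summed level of all 5 kainate receptor genes stayed between 0.139 and 9.43 CPM in the 8 libraries.

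Of the NMDA receptor subunits, 3 passed the filter. Grin1, the subunit that every NMDA receptor needs, had 3, 19, 20 and 7 counts in the E-cadHI libraries of mice 57, 58, 67 and 70 and 0, 11, 3 and 18 counts in the E-cadLO libraries. It was lower in E-cadLO cells in 3 mice and higher in mouse 70, and its log2 fold change was -0.48 (SE 1.06, edgeR adjusted p = 0.839). Beside Gabrp it was the only tested subunit with a fold change below 0, its exons overlap the antisense gene Grin1os, and without mouse 67 the value was 0.12. Grin2b, a glutamate-binding subunit prominent in the forebrain, had 2, 51, 6 and 18 counts in E-cadHI and 2, 25, 40 and 114 counts in E-cadLO cells, with a log2 fold change of 1.17 (SE 1.13, edgeR adjusted p = 0.613) that was 0.35 without mouse 70 and 2.33 without mouse 58. Grin2d, a glutamate-binding subunit that is prominent early in development, had 7, 12, 13 and 4 counts in E-cadHI and 43, 7, 18 and 16 counts in E-cadLO cells. Like Gabrr1 it was highest in the E-cadLO library of mouse 57, whereas mouse 70 was highest for Grin2b, and its log2 fold change was 1.21 (SE 0.63, edgeR adjusted p = 0.407), or 0.46 without mouse 57.

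Among the metabotropic receptors that passed the filter were Grm3 and Grm5. Grm3, a group II receptor that inhibits adenylyl cyclase and is known from astrocytes as well as neurons, stood at 0.139, 4.38, 0.892 and 12.6 CPM in the E-cadHI libraries of mice 57, 58, 67 and 70. In the E-cadLO libraries Grm3 stood at 2.01, 8.96, 9.90 and 44.4 CPM. Each mouse had the higher level in its E-cadLO library, and the groups overlapped. The log2 fold change was 1.87 (SE 1.19, edgeR adjusted p = 0.473) without and 2.29 (SE 0.50, edgeR adjusted p = 0.0963) with the block. It passed in DESeq2 with the block (adjusted p = 2.49e-04) and in edgeR with the block without mouse 57 (adjusted p = 0.0371).

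Grm5 is a group I receptor, which acts through phospholipase C. It had 0, 28, 1 and 21 counts in the E-cadHI and 47, 18, 43 and 113 counts in the E-cadLO libraries of mice 57, 58, 67 and 70. Its E-cadLO libraries were the higher ones except in mouse 58, where the CPM were nearly equal, and the log2 fold change was 2.01 (SE 1.15, edgeR adjusted p = 0.436). With the block Grm5 reached 2.87 (SE 1.15, edgeR adjusted p = 0.233), and DESeq2 with the block called it (adjusted p = 0.0211).

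**Figure D2:**
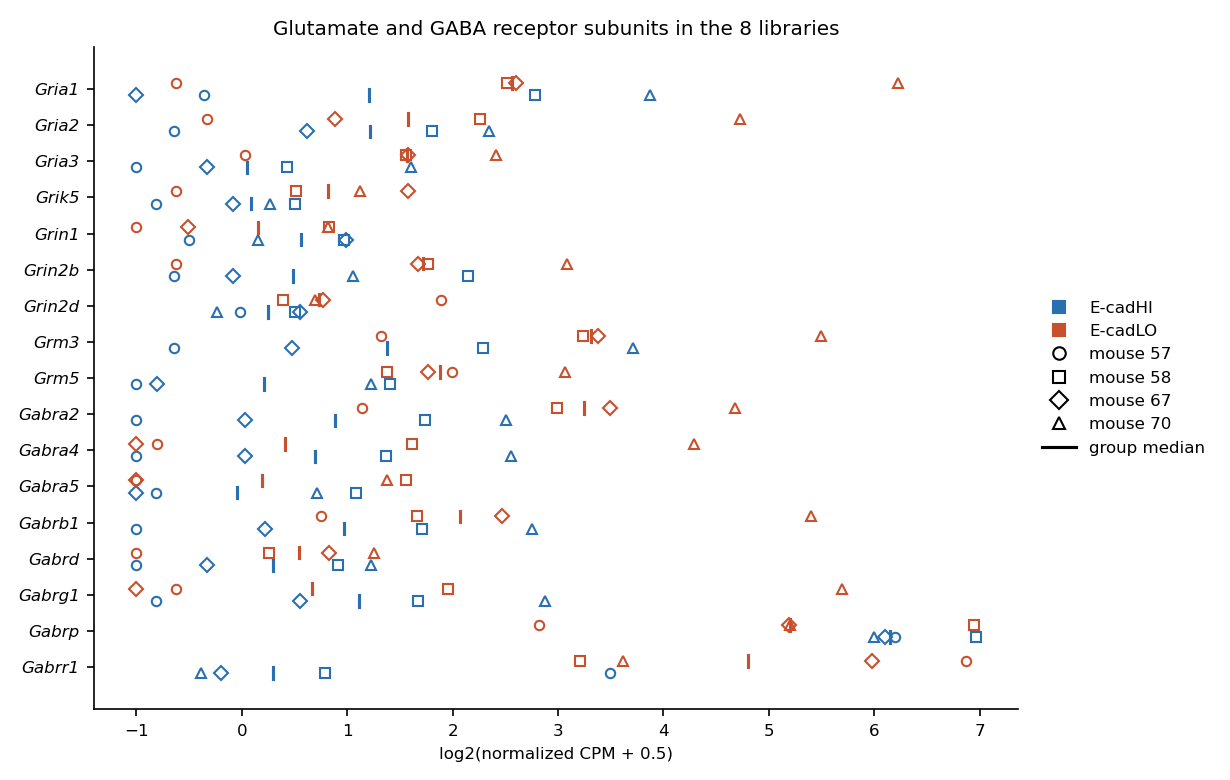
Level of 17 of the 19 tested subunits on a log2(normalized CPM + 0.5) scale, with E-cadHI libraries in blue, E-cadLO libraries in red, a symbol per mouse and a bar at each group's median of 4 libraries. The E-cadHI libraries of Gabrp lie to the right of those of all other subunits, Gabrr1 has its E-cadLO point to the right of the E-cadHI point in each mouse, and for most other subunits the E-cadLO library of mouse 70 is the rightmost point.

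Over the 19 tested subunits, none was called without the block (background 0.0%), with adjusted p-values from 0.298 to 0.962 and 1 unadjusted p under 0.05, that of Gabrr1 (edgeR). With the block 1 of the 19 was called higher (background 0.728%), and 8 had an unadjusted p under 0.05 (background 19.6%). In DESeq2 without the block 0 of the 19 were called (background 2.64%), and in DESeq2 with the block 5 were called higher, namely Gabrr1, Gabra2, Grm3, Gabrb1 and Grm5 (background 7.57%). Leaving out mouse 57 gave 3 calls with the block in edgeR, those of Gabrr1, Gabra2 and Grm3 (background 3.06%), and leaving out any other mouse gave none.

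By direction, 17 of the 19 tested subunits had a log2 fold change above 0 in the fits without and with the block, where 55.1% and 52.2% of all tested genes did. Their median log2 fold change was 1.48 without and 1.27 with the block, beside 0.06 and 0.03 for all tested genes. Within mice, 6 subunits were higher in E-cadLO cells in 4 of 4 mice (Gabrr1, Gabra2, Grm3, Gria2, Gria3 and Grik5), where 16.8% of all tested genes were, and 1 was lower in 4 of 4, Gabrp, where 14.2% were. A further 7 subunits were higher in 3 of 4 mice, where 23.8% of all tested genes were. For none of the 19 did the groups lie entirely apart, where 8.1% of all tested genes had groups without overlap.

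The mice did not contribute alike. In mouse 58 the tested subunits were about evenly split, with 10 of 19 higher in E-cadLO cells and a median log2 ratio of 0.01. Mouse 57 had 12 of 19 higher and a median of 0.19, mouse 67 had 14 and 1.66, and mouse 70 had 18 and 1.78. The share of all tested genes that were higher in E-cadLO cells was 50.8%, 50.1%, 50.9% and 55.3% in mice 57, 58, 67 and 70. Over all 43 subunits, including those too low to test, 24, 19, 29 and 34 were higher in these mice.

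**Figure D3:**
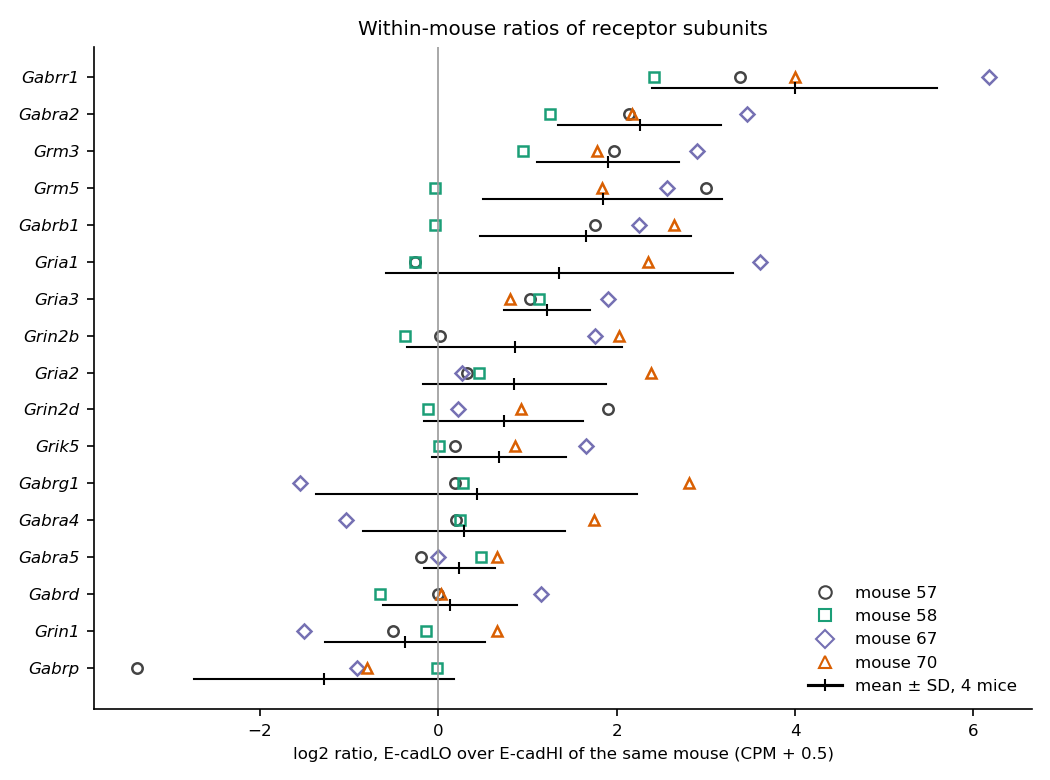
Log2 ratio of E-cadLO over E-cadHI within each mouse (CPM + 0.5) for 17 of the 19 tested subunits, ordered by the mean, with a symbol per mouse and a black line for the mean ± SD of 4 mice. Gabrr1 lies at the top with all ratios from 2.42 to 6.18, Gabrp at the bottom with all ratios below 0, and the symbols of mouse 58 lie near 0 for most subunits.

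Summed by family, the AMPA receptor genes stood at 0.418, 10.7, 1.34 and 23.3 CPM in the E-cadHI libraries of mice 57, 58, 67 and 70 and at 0.966, 11.98, 9.49 and 110 CPM in the E-cadLO libraries. The metabotropic receptor genes stood at 0.139, 9.45, 1.56 and 17.6 CPM and at 5.94, 13.5, 14.5 and 57.6 CPM. Both sums were higher in the E-cadLO library of every mouse, and within either group mouse 70 was highest. The NMDA receptor genes stayed low, at 1.46, 7.76, 3.72 and 5.79 CPM in E-cadHI and at 4.16, 7.44, 7.14 and 15.5 CPM in E-cadLO cells. The GABA-A receptor genes were summed to 84.4, 145, 72.8 and 93.5 CPM and to 128, 160, 125 and 202 CPM, most of it Gabrp and Gabrr1 except in the E-cadLO library of mouse 70. Together these 2 genes held 96.4%, 71.1%, 85.2% and 44.1% of all subunit counts in E-cadHI and 88.1%, 66.7%, 61.9% and 12.2% in E-cadLO cells.

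The 24 subunits removed by the filter had between 3 and 99 counts in all and at most 69 in a library. Among the AMPA and kainate receptors these were Gria4, which reached 69 counts in the E-cadLO library of mouse 70, and Grik1, Grik2, Grik3 and Grik4, with 50 to 80 counts in all. Of the NMDA receptor genes, Grin2a had 3 counts in all and none in E-cadHI cells, while Grin2c, Grin3a and Grin3b had 53 to 98. Grin3b overlaps exons of Tmem259. Of the metabotropic receptors of groups II and III, Grm2, Grm4, Grm6, Grm7 and Grm8 had 10 to 44 counts in all. Of the GABA-A receptor genes, 10 were removed, among them Gabra3, Gabra6, Gabrb2, Gabre, Gabrg3, Gabrq, Gabrr2 and Gabrr3.

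Without the filter none of these 24 was called (smallest edgeR adjusted p = 0.524), and 1 had an unadjusted p under 0.05. That gene was Gabra3, an alpha subunit on the X chromosome, with 2, 4, 1 and 3 counts in the E-cadHI and 0, 7, 49 and 12 counts in the E-cadLO libraries of mice 57, 58, 67 and 70 (log2 fold change 2.61, unadjusted p = 0.0462, edgeR). Gabre, the epsilon subunit, was among the few subunits with counts in every library, with 7, 19, 8 and 2 counts in E-cadHI and 8, 12, 26 and 6 counts in E-cadLO cells. At this depth, no difference in these genes was detected after adjustment, and the size of difference that could have been detected was not computed.

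The proteins that work with the receptors were followed in 5 lists. The auxiliary subunits of glutamate receptors had 7 of 16 genes tested, and all 7 had a log2 fold change above 0 (median 1.44) with none called by edgeR in either fit. The most abundant of them, Grina, an NMDA receptor-associated protein with wide expression, stood at 95.4 CPM ± 14.4 (SD, n = 4) in E-cadHI and 100.4 CPM ± 14.9 (SD, n = 4) in E-cadLO cells, with a log2 fold change of 0.07 (SE 0.17). Shisa9 (CKAMP44), which modulates AMPA receptors, had a log2 fold change of 3.12 (SE 1.63, edgeR adjusted p = 0.407) and was the 1 gene of the list called by DESeq2 with the block (adjusted p = 0.0146, background 7.57%). The AMPA receptor partners Cnih2 and Cnih3 were higher in E-cadLO cells in 4 of 4 mice with log2 fold changes of 1.44 (SE 0.82) and 1.75 (SE 0.77), which did not pass (edgeR adjusted p = 0.436 and 0.356).

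Scaffold proteins of excitatory synapses had 18 of 20 genes tested, of which 15 had a log2 fold change above 0 (median 0.95) and none was called by edgeR in either fit. DESeq2 with the block called 6 of them higher, Dlg1, Dlg2, Dlg4, Homer2, Dlgap1 and Nlgn1 (background 7.57%), of which those other than Dlg1 are named because of this call. The abundant Pick1, Dlgap4, Homer1 and Shank2 had log2 fold changes from -0.34 to 0.05, and Dlg1 (SAP97), which epithelial cells also use, had 0.66 (SE 0.21, edgeR adjusted p = 0.296). Partners of inhibitory receptors had 9 of 16 genes tested, with 7 above 0 (median 0.75) and none called by edgeR in either fit. Gabarap, named for its binding to GABA-A receptors and used in autophagy, stood at 278 CPM ± 38.0 (SD, n = 4) in E-cadHI and 258 CPM ± 25.1 (SD, n = 4) in E-cadLO cells. Gphn (gephyrin), which anchors inhibitory receptors, had a log2 fold change of 0.25 (SE 0.18, edgeR adjusted p = 0.520). Glrb, the beta subunit of glycine receptors, had 1.44 (SE 0.65, edgeR adjusted p = 0.362) and was called by DESeq2 with the block (adjusted p = 0.0265, background 7.57%).

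Genes that take up and metabolize the transmitters formed the last lists. For glutamate, 11 of 15 genes were tested, and edgeR called 1 higher with the block (background 0.728%) and none without it. That gene was Slc1a3 (GLAST), a glial glutamate transporter. Its log2 ratios were 2.54, 0.88, 2.03 and 2.27 in mice 57, 58, 67 and 70. With the block its log2 fold change was 1.96 (SE 0.29, edgeR adjusted p = 0.0363). Without the block Slc1a3 had 1.998 (SE 1.23, edgeR adjusted p = 0.460). The other glial transporter, Slc1a2 (GLT-1), had 1.69 (SE 0.28) with the block and did not pass in edgeR (adjusted p = 0.0513). DESeq2 with the block called 4 genes of the list higher, Slc1a3 (adjusted p = 6.4e-09), Slc1a2 (3.48e-07), and, named because of this call, Slc7a11 (1.64e-04) and Got1 (0.0309), with a background of 7.57%. It called 1 lower, the neuronal and epithelial transporter Slc1a1, also named because of this call, with a log2 fold change of -1.13 (adjusted p = 0.00504, background 1.65%), while edgeR with the block did not call it (adjusted p = 0.117).

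For GABA, 6 of 10 genes for synthesis, transport and breakdown were tested, of which 5 had a log2 fold change above 0 (median 1.35). Abat, the enzyme that breaks down GABA, had 2.66 (SE 0.51, edgeR adjusted p = 0.0714) with the block. Slc1a2 and Slc1a3 are also members of the astrocyte marker list below.

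Markers of brain cells moved in the same direction as most subunits. The 15 neuron markers were summed to 39.9 to 465 CPM in E-cadHI and 96.4 to 1163 CPM in E-cadLO libraries and were higher in the E-cadLO library of 4 of 4 mice, although Tubb3, Nefm, Stmn2, Slc17a7 and Gad2 were at 0 in at least 1 library. Of the 14 tested, all had a log2 fold change above 0 and 2 were called higher by edgeR with the block (background 0.728%, also for the calls in the next lists). The 15 astrocyte markers ranged from 1209 to 4209 CPM and from 793 to 11833 CPM (higher in 3 of 4 mice, 4 called with the block). The 12 oligodendrocyte markers ranged from 565 to 8697 CPM and from 1329 to 34882 CPM (higher in 4 of 4, 2 called), and the 15 microglia and macrophage markers from 34.5 to 284 CPM and from 236 to 1032 CPM (higher in 4 of 4, 4 called). Each of these sums was highest in the E-cadLO library of mouse 70, the library with most subunit counts outside Gabrp and Gabrr1. DESeq2 with the block called 10 of the 14 tested neuron markers and 10 of the 15 astrocyte markers higher (background 7.57%). In the same fit, 8 of the 12 oligodendrocyte and 14 of the 15 microglia and macrophage markers were called higher.

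The other lists held no gene called by edgeR with the block. DESeq2 with the block called 2 of 9 oligodendrocyte precursor, 1 of 9 endothelial and 2 of 6 fibroblast markers higher (background 7.57%). It called 1 of 3 tested genes of the neutrophil list lower (background 1.65%). Precursors of oligodendrocytes (10 of 11 markers in the table) ranged from 61.4 to 151 CPM in E-cadHI and 71.0 to 271 CPM in E-cadLO libraries, endothelium from 42.8 to 79.1 and from 66.2 to 120 CPM, and pericytes and smooth muscle from 27.6 to 92.3 and from 34.0 to 197 CPM. Fibroblast markers ranged from 6.76 to 21.2 CPM in E-cadHI and reached 1152 CPM in the E-cadLO library of mouse 57, where the other E-cadLO libraries were at or below 47.7 CPM. Neutrophil markers other than Ltf, which is also a milk protein, ranged from 15.9 to 25.0 CPM and from 6.84 to 26.6 CPM.

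Set beside the subunits, the 41 subunits other than Gabrp and Gabrr1 summed to 3.14, 51.0, 11.9 and 80.7 CPM in the E-cadHI libraries of mice 57, 58, 67 and 70 and to 16.6, 65.7, 60.7 and 346 CPM in the E-cadLO libraries. Mouse 57 was lowest and mouse 70 highest in each group, as they were for the neuron markers in E-cadLO cells (96.4, 1076, 531 and 1163 CPM) and for the oligodendrocyte markers in both. Gabrr1 was ordered otherwise. The E-cadLO library of mouse 57, with the most Gabrr1 (117 CPM), had the lowest sums of neuron, astrocyte and oligodendrocyte markers and the highest sum of fibroblast markers among the E-cadLO libraries, and its epithelial markers were the lowest of all libraries (6201 CPM). The microglia and macrophage sum was not lowest in mouse 57, with 278, 236, 793 and 1032 CPM in the E-cadLO libraries of mice 57, 58, 67 and 70. In the E-cadHI library of mouse 57 that sum was 34.5 CPM. The next most Gabrr1 was in the E-cadLO library of mouse 67 (62.7 CPM). Its fibroblast sum was the lowest of the E-cadLO libraries (17.3 CPM), and its epithelial sum was the highest of all libraries (15518 CPM). The part of these cell types in the levels of the subunits was not tested.

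**Figure D4:**
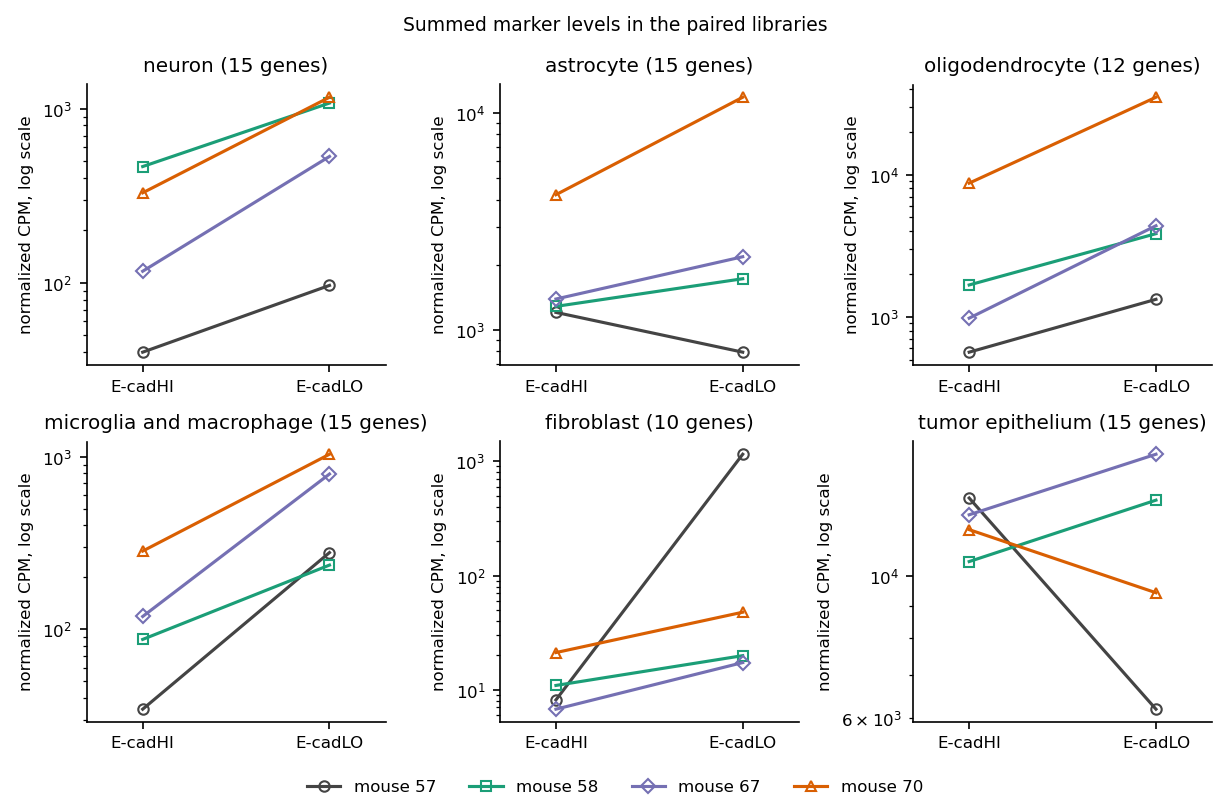
Summed normalized CPM (log axis) of 6 marker lists in the E-cadHI and E-cadLO libraries, joined by a line per mouse. Neuron, oligodendrocyte, microglia and macrophage, and fibroblast sums ran up in all 4 mice, the astrocyte sum ran down in mouse 57, and the epithelial sum ran up in 2 mice and down in 2.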

How the data were processed

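RNA was sequenced from E-cadHI and E-cadLO cells sorted from the BCBM of 4 mice. According to the submitters' processing notes and the study's methods, single reads were mapped to GRCm38 with HISAT2 2.1.0. The authors deposited raw counts per gene, made with a counter named Icount in the methods and HTSeq in the notes. Strand and the treatment of reads that match several genes are not given in the sources used here, and 18 of the 43 subunits overlap exons of another annotated gene, so their counts may hold reads of a neighbor. Of the 32259 entries, 365 without an identifier (0.0636% to 0.0954% of the counts) were left out. All 8 count columns were used.

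Counts were normalized by TMM and tested with edgeR 4.0.16 (R 4.3.3, quasi-likelihood test) after filterByExpr by group (minimum count 10, minimum total 15), with Benjamini-Hochberg adjustment over all 13598 tested genes and a threshold of 0.05. The main design leaves out the mouse, as the study names DESeq2 and no block. Both libraries of a number come from the same animal, and they deviated together from their group means (correlations 0.381, 0.248, 0.272 and 0.692, against -0.541 to 0.144 between mice), so the numbers pair the samples. CPM are TMM-normalized, ratios within a mouse use CPM plus 0.5, which understates the change of low genes, and CPM per kb use merged exon lengths of GENCODE M21, where all 43 subunits were found and 39 had the same coordinates. Totals per library set the precision, and the floor of 3 counts covers counting error only. Nothing says that the sorted libraries were repeated, so the p-values rest on 4 mice, or fewer where a mouse was left out. Fits without the block treat the 8 libraries as independent, although they are paired. Fits with the block measure the spread of the differences within mice.

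Alternatives were DESeq2 1.42.0, the replicate block, DESeq2's size factors in edgeR, no filter, at least 10 counts in every library, a robust fit and each mouse left out. Promoters are from RefSeq (GRCm38.p6), 250 bases before each start. The members, marker lists and pathway lists were chosen with earlier results of these data known. Named genes are the subunits, of which a few are counted but not reported here by name, and of each pathway list up to 5 tested genes of highest mean CPM plus those described as named for a call. Tables were made with Python 3.11 and pandas 2.3 and figures with matplotlib 3.10.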

Additional observations from a re-analysis of the deposited data

Results flagged for a closer look

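In groups of 4 libraries, 57 sets of values of the tested subunits were examined for a value far from the other 3 by Dixon's criterion, and 9 were found. For normally distributed values the criterion would flag about 1 in 20, or 2.85. CPM of low genes need not be normally distributed, so the 9 cannot be read as an excess over chance. The E-cadLO library of mouse 70 stood far above the other E-cadLO libraries for Gria1 (74.4 CPM), Gabrg1 (51.1 CPM), Gabrb1 (41.7 CPM), Gria2 (25.9 CPM) and Gabra4 (19.1 CPM). The log2 ratio of Gria2 within mouse 70 (2.38) was far above those of the other mice. The same library had the highest sums of astrocyte (11833 CPM) and oligodendrocyte markers (34882 CPM), and their part in these values was not tested.

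Mouse 57 was far above the others for Gabrr1 in E-cadHI cells (10.7 CPM), the mouse that also had the most Gabrr1 in E-cadLO cells, and for Grin2d in E-cadLO cells (3.19 CPM). For Gabrp in E-cadHI cells mouse 58 was far above (124 CPM), and its E-cadLO library was the highest of that group as well.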

How the results depend on the processing

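The calls depended on the test and on the pairing. Of all genes, 0 were called higher and 0 lower without the block, against 298 and 61 with DESeq2, 99 and 0 with the replicate block, and 1030 and 225 with DESeq2 and the replicate block. Called higher were 23 genes with no filter and 3 with at least 10 counts in every library, a filter that leaves Gabrp as the single subunit. With a mouse left out, 0 to 0 genes were called without the block, and with the replicate block 0 to 425 were called higher (425 without mouse 57, 63 without mouse 58, 0 without mouse 67, 2 without mouse 70) and 0 to 24 lower (24 without mouse 57, 3 without mouse 58). Of the subunits, 1 was called higher with the replicate block, 5 with DESeq2 and the block, and 0 to 3 with the block and a mouse left out (3 without mouse 57). DESeq2 size factors, the robust fit and DESeq2 without the block called none of them and kept the sign of all 19. With a mouse left out, the log2 fold change ran from -0.33 (without mouse 67) to 0.60 for Gabrd, from -1.15 to 0.12 (without mouse 67) for Grin1 and from -0.12 (without mouse 70) to 2.72 for Gabrg1; with the block as well it ran from -0.45 to 0.93, from -1.78 to -0.20 and from -0.87 to 1.59, and the cause of these turns of sign was not tested. The direction of Gabrr1 and Gabrp held under each alternative, and the mean ratio within mice moved by less than its SD with a pseudocount of 0.25 or 1 CPM or with DESeq2 size factors. With a median of 80 counts per subunit over 8 libraries, depth limits what can be said of most of them.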
